A study of Homo sapiens with 4 samples.

Results

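The JmjC histone demethylases examined here are 10 genes, KDM2A, KDM2B, KDM3A, KDM4A, KDM4B, KDM4C, KDM5A, KDM5B, KDM6B and JMJD6, chosen by gene symbol from the 62077 rows of an RNA-Seq expression table. All 10 were found on 1 row each among the 61845 genes whose identifier occurred once. Expression was measured in FaDu cells, a line from a squamous cell carcinoma of the human hypopharynx, as FPKM, fragments per kilobase of transcript scaled to the mapped fragments of the library. Cells carrying a scrambled control or a TET1 knockdown were grown under normoxia or hypoxia, and each of the 4 combinations was 1 library. The normoxic libraries are named N-scr (scrambled control) and N-si (TET1-si), and the hypoxic ones H-scr and H-si. Hypoxia was 1% O2 with 5% CO2 for 19 h. The oxygen level of normoxia is not given in the sources used here. Both the knockdown and the control were delivered by lentiviral short hairpin vectors, so every library came from infected cells, and the study's methods list 1 hairpin against TET1. Without replicates there is no replicate error and no p-value in what follows, and a difference between 2 libraries is a difference between those libraries.

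JmjC enzymes are dioxygenases that use iron, 2-oxoglutarate and molecular oxygen to hydroxylate methyl groups on lysine, which then leave as formaldehyde. Their substrates include the repressive marks H3K9 and H3K27 methylation, the promoter mark H3K4 trimethylation and the gene-body mark H3K36 methylation. Several of these genes, KDM3A and KDM4B among them, are textbook targets of the hypoxia-inducible factors, and TET1, which oxidizes 5-methylcytosine, belongs to the same class of oxygen-dependent enzymes.

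The hypoxia-inducible factors bind the core letters ACGTG or GCGTG, so the promoter windows of the 4 members that were at least 2-fold higher under hypoxia in scrambled cells are shown with these letters in capitals on either strand. The windows run from 250 bases before to 50 after a RefSeq start on GRCh38.p14, and each is written 5′ to 3′ on the strand of its gene. KDM3A is read from chr2:86441121-86441420 on the plus strand, KDM4B from chr19:4968863-4969162 on the plus strand, KDM4C from chr9:6757723-6758022 on the plus strand and KDM5B from chr1:202808372-202808671 on the minus strand.
KDM3A: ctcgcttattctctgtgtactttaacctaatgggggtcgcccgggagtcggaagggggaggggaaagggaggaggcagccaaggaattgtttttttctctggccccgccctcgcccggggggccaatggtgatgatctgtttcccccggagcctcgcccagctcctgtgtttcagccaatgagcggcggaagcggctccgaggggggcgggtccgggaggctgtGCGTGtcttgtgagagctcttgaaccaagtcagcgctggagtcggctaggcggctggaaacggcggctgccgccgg
KDM4B: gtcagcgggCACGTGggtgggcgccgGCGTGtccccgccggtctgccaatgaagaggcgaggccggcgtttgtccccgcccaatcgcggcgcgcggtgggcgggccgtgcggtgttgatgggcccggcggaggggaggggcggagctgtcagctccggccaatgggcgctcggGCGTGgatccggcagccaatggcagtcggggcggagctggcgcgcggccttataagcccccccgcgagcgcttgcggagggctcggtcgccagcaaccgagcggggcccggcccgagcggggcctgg
KDM4C: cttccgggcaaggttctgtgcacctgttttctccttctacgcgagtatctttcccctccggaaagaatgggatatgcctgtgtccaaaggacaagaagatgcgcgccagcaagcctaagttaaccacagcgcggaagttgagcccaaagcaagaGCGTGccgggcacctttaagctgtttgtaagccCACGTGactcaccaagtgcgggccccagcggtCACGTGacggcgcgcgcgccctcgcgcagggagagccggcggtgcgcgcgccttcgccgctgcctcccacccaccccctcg
KDM5B: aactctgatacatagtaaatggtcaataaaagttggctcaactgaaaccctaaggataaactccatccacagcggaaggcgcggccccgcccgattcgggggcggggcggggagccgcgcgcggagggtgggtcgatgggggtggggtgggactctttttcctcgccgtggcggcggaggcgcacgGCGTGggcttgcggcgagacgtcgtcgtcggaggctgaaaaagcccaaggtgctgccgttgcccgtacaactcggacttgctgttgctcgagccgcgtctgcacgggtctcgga

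The KDM3A window held GCGTG once, 26 bases before the start, and a second, overlapping RefSeq window of this gene held the same letters. The KDM5B window held GCGTG once as well, 64 bases before the start. In KDM4C the ACGTG letters formed 2 copies of CACGTG, a palindrome that counts on both strands, beside 1 GCGTG. KDM4B held 1 CACGTG and 2 GCGTG. RefSeq gave windows for 9 of the 10 members, 15 in all, with none for JMJD6. Either motif was present in 13 of the 15, against 48.4% of all 35116 windows of the same length. ACGTG stood in 3 of the 15 and in 21.4% of all windows, and GCGTG stood in 12 of the 15 and in 36.5% of all. The member windows had a median GC content of 63.7%, and all windows one of 58.7%. GCGTG is itself rich in G and C, and the part of base composition in this count was not tested. All 9 members with a window held at least 1 match, so the presence of a match is the same for members of any response. CACGTG, singled out after the sequences were seen, stood in 7.26% of all windows. A match is a description of the letters and not a binding site.

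The libraries held an estimated 22440000 to 24520000 mapped fragments, recovered from the steps between low FPKM values. At that depth the members had between 294 and 18145 approximate reads, the lowest for KDM4B in N-scr and the highest for KDM2A in H-si. The 95% intervals given with log2 changes are exact binomial intervals of the read ratio, with no pseudocount, and cover counting error only. TET1, the knockdown target, was at 0.129 FPKM in N-scr against 0.0493 in N-si, and at 0.331 in H-scr against 0.122 in H-si, that is 2.63-fold and 2.71-fold higher in the scrambled cells. These levels rested on 28, 11, 76 and 26 approximate reads. All 8 genes of a hypoxia control list, among them NDRG1 and the prolyl hydroxylase EGLN3, were higher under hypoxia in both arms, 7 of them at least 2-fold with the scrambled control and 6 with TET1-si. Of 10 squamous epithelial markers, 8 were at or above 1 FPKM in all libraries. In TET1-si cells 4 of the 10 were at least 2-fold lower under normoxia and 4 under hypoxia, beside 5.56% and 8.35% of all genes. KRT5, KRT6A and KRT14 were so in both oxygen states, DSG3 under normoxia alone and SFN under hypoxia alone. The keratins KRT6A and KRT14 were the lowest relative to scrambled cells, at 0.394 and 0.487 FPKM in N-si against 67.7 and 42.1 in N-scr, while the epithelial cadherin CDH1 and EPCAM were higher in both oxygen states, at 266.9 and 205.9 FPKM in N-si against 179.3 and 154.5 in N-scr. The summed squamous markers, mostly KRT5 and KRT17, were 5181, 8132, 2189 and 4424 FPKM in N-scr, H-scr, N-si and H-si. Markers of leukocytes, endothelium and fibroblasts, 9 genes in all, summed to 28.6, 52.5, 41.5 and 68.0 FPKM, the same order of libraries as the summed JmjC genes. That sum came mostly from CD68 and COL1A1, while CD3E, COL1A2 and LUM were listed at 0 in all libraries and PTPRC did not exceed 0.0101 FPKM. COL1A1 followed the order of the sum, at 5.29 (N-scr), 28.58 (H-scr), 13.96 (N-si) and 36.99 FPKM (H-si). VWF also did, at 0.16, 1.79, 0.457 and 2.94 FPKM. CD68 did not, at 21.3, 19.8, 26.3 and 26.8 FPKM, nor did ACTA2, at 1.88, 2.35, 0.779 and 1.24 FPKM. The part of these markers in the JmjC values was not tested. In bulk RNA a change in the makeup of a culture and a change in RNA per cell cannot be told apart.

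Under hypoxia in scrambled cells, 4 of the 10 JmjC genes, KDM3A, KDM4B, KDM4C and KDM5B, were at least 2-fold higher, and none was at least 2-fold lower. Across the 15057 genes with a mean of at least 1 FPKM, which included all 10 members, the shares were 12.9% higher and 4.53% lower. The median change of the 10 was 0.64 on the log2(FPKM + 0.1) scale, against 0.05 over all genes. In TET1-si cells 3 members, KDM3A, KDM4C and KDM5B, were at least 2-fold higher under hypoxia, and the median was 0.60 against 0.03. The TET1-si libraries were at least 2-fold above the scrambled ones in both oxygen states at KDM4C, KDM5B and KDM6B, as they were at 6.51% of all genes. JMJD6 differed by at most 1.19-fold between any 2 libraries.

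**Figure D1:**
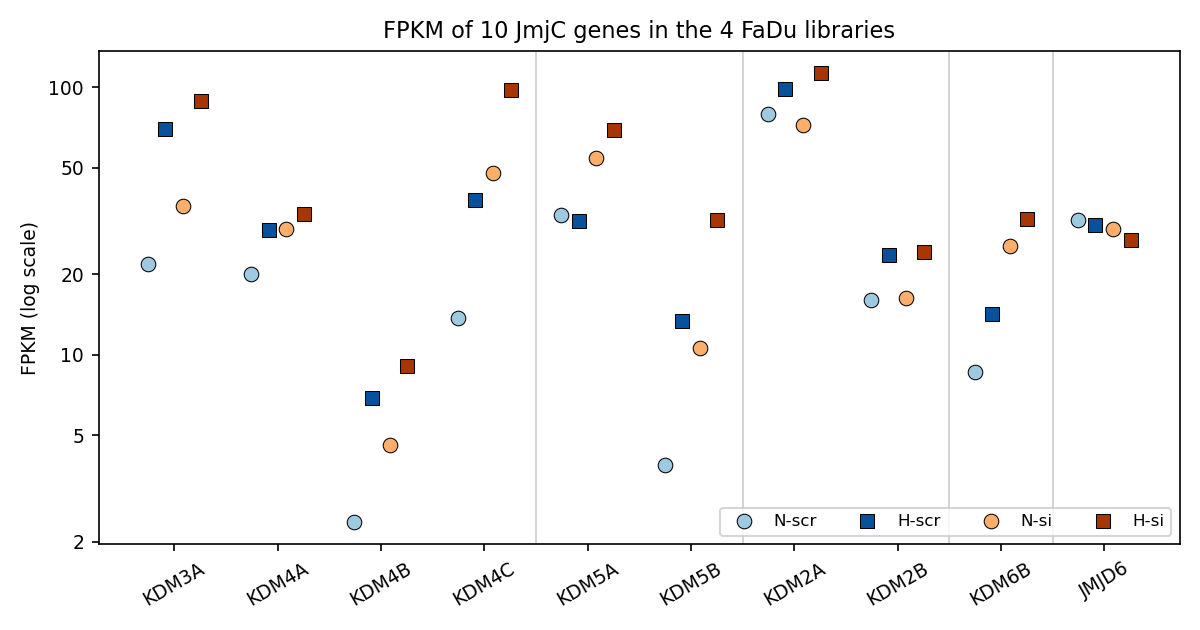
FPKM of the 10 JmjC genes in the 4 libraries, 1 point per library, on a log axis. KDM2A was the highest member in each library and KDM4B the lowest, while KDM5B and KDM4C spread the most, by 8.24-fold and 7.12-fold.

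Among the H3K9 demethylases, KDM3A removes mono- and dimethylation from H3K9. The gene (ENSG00000115548) lies on chr2:86667770-86719839 of hg19, on the plus strand, with 26 exons in its canonical transcript. It was at 21.9 (N-scr), 69.5 (H-scr), 35.9 (N-si) and 89.1 FPKM (H-si). Both hypoxic libraries lay above both normoxic ones, and within each oxygen state the TET1-si library was the higher. Hypoxia went with a 3.18-fold higher level with the scrambled control (log2 1.66, interval 1.60 to 1.73) and a 2.48-fold higher level with TET1-si (log2 1.31, interval 1.26 to 1.37). The first change stood above 94.6% of all genes tested. The TET1-si library exceeded the scrambled one 1.64-fold under normoxia and 1.28-fold under hypoxia.

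KDM4A, KDM4B and KDM4C remove tri- and dimethylation from H3K9 and, to differing degrees, from H3K36. KDM4A (ENSG00000066135; chr1:44115829-44171186, plus strand, 22 exons) was at 20.1 (N-scr), 29.3 (H-scr), 29.4 (N-si) and 33.7 FPKM (H-si). N-scr was the low library and the other 3 lay within 1.15-fold of H-scr. Its hypoxia change was 0.54 with the scrambled control (interval 0.46 to 0.63) and 0.20 with TET1-si (interval 0.12 to 0.27). Exons of KDM4A share 473 of 5184 bases with the antisense transcript KDM4A-AS1, which was at 23.0, 27.4, 20.7 and 27.8 FPKM. The strand setting of the counting is not given in the sources used here, so reads of that stretch could belong to either gene. A protein-coding gene annotated on the same strand (ENSG00000284989) shares 2086 of the 5184 bases and had no value among the genes used here.

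KDM4B (ENSG00000127663; chr19:4969125-5153606, plus strand, 23 exons) was at 2.37 (N-scr), 6.87 (H-scr), 4.59 (N-si) and 9.06 FPKM (H-si). It was the lowest of the 10 in every library, yet its libraries followed the same order as those of KDM3A. Hypoxia went with a 2.89-fold higher level in scrambled cells (log2 1.49, interval 1.34 to 1.73). In TET1-si cells the difference was 1.97-fold (log2 0.97, interval 0.83 to 1.12), just short of 2-fold, and rescaling each library to TPM, in which all libraries have the same total over genes, took it past 2-fold (log2 1.10). KDM4B was also the member nearest to KDM3A in its pattern.

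KDM4C (ENSG00000107077; chr9:6720863-7175648, plus strand, 22 exons) was at 13.7 (N-scr), 37.8 (H-scr), 47.6 (N-si) and 97.3 FPKM (H-si). The normoxic TET1-si library exceeded the hypoxic scrambled one, so the TET1-si difference was the larger of the 2 for this gene. TET1-si cells were 3.48-fold higher under normoxia (log2 1.79, interval 1.71 to 1.89) and 2.58-fold higher under hypoxia (log2 1.36, interval 1.31 to 1.42). The normoxic difference stood above 96.2% of all genes tested and was the largest TET1-si difference among the 10. The hypoxia differences were 2.76-fold with the scrambled control and 2.04-fold with TET1-si. Median-of-ratios scaling between libraries brought the second below 2-fold (log2 0.94). A long noncoding gene on the same strand (ENSG00000225489) shares 135 of 10323 exon bases with KDM4C and was at 2.85, 11.3, 7.03 and 23.4 FPKM.

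The 4 H3K9 demethylases summed to 58.0 (N-scr), 143.4 (H-scr), 117.5 (N-si) and 229.1 FPKM (H-si). Hypoxia went with a 2.47-fold higher sum with the scrambled control and a 1.95-fold higher sum with TET1-si. Among the classes with more than 1 gene this was the widest spread, 3.95-fold from N-scr to H-si.

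The H3K4 demethylases KDM5A and KDM5B remove tri- and dimethylation from H3K4, and KDM5A was first described as a partner of the retinoblastoma protein. KDM5A (ENSG00000073614; chr12:389295-498620, minus strand, 28 exons) was at 33.1 (N-scr), 31.6 (H-scr), 54.3 (N-si) and 69.1 FPKM (H-si). Its libraries split by knockdown and not by oxygen, with both TET1-si libraries above both scrambled ones. TET1-si cells were 1.64-fold higher under normoxia (log2 0.71, interval 0.67 to 0.75) and 2.19-fold higher under hypoxia (log2 1.13, interval 1.09 to 1.17). Under hypoxia that difference fell to 0.98 with median-of-ratios scaling, below 2-fold. The hypoxia change was -0.07 with the scrambled control (interval -0.12 to -0.03) and 0.35 with TET1-si (interval 0.31 to 0.38). The first of these turned to 0.05 with TPM, so its direction rested on the scaling. CCDC77, on the opposite strand with 48 of the 12029 exon bases of KDM5A in common, was at 22.5, 20.7, 39.0 and 33.0 FPKM, also higher in both TET1-si libraries.

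KDM5B (ENSG00000117139; chr1:202696526-202778598, minus strand, 27 exons), known for its high levels in breast cancer, was at 3.87 (N-scr), 13.3 (H-scr), 10.6 (N-si) and 31.9 FPKM (H-si). No member covered a wider range. Hypoxia went with a 3.45-fold higher level with the scrambled control (log2 1.76, interval 1.67 to 1.90) and a 3.02-fold higher level with TET1-si (log2 1.58, interval 1.52 to 1.66). The TET1-si library was 2.73-fold higher under normoxia and 2.39-fold higher under hypoxia. KDM5B and KDM4C were the 2 members at least 2-fold higher in all 4 comparisons, which share libraries, beside 1.59% of all genes. KDM4C no longer was with median-of-ratios scaling. KDM5B stood above 95.2% of all genes in its hypoxia response in scrambled cells and above 92.0% in its TET1-si response under hypoxia. The 2 H3K4 demethylases summed to 37.0, 44.9, 64.9 and 100.9 FPKM in N-scr, H-scr, N-si and H-si.

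The H3K36 demethylases KDM2A and KDM2B carry a CXXC zinc finger that binds unmethylated CpG islands, and KDM2B brings a Polycomb complex there. KDM2A (ENSG00000173120; chr11:66886740-67025141, plus strand, 21 exons) was at 79.3 (N-scr), 98.4 (H-scr), 72.2 (N-si) and 112.7 FPKM (H-si). It was the most abundant member in every library. Hypoxia went with a 1.24-fold higher level with the scrambled control and a 1.56-fold higher level with TET1-si. Its TET1-si difference was -0.13 under normoxia (interval -0.17 to -0.10) and 0.20 under hypoxia (interval 0.17 to 0.23).

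KDM2B (ENSG00000089094; chr12:121867312-122018920, minus strand, 23 exons) was at 16.0 (N-scr), 23.6 (H-scr), 16.3 (N-si) and 24.2 FPKM (H-si). Its libraries split by oxygen alone, and the hypoxia change was 0.56 in either arm. The TET1-si differences were 0.03 in both oxygen states, with intervals of -0.04 to 0.11 under hypoxia and -0.06 to 0.12 under normoxia. They turned to -0.11 and -0.14 with median-of-ratios scaling. KDM2B shares 439 of 13632 exon bases with RNF34 on the opposite strand, which was at 46.0, 39.9, 39.1 and 28.7 FPKM and thus lower in hypoxia where KDM2B was higher. The 2 H3K36 demethylases summed to 95.3, 122.0, 88.5 and 136.9 FPKM.

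KDM6B, which removes tri- and dimethylation from the Polycomb mark H3K27 and is induced by inflammatory stimuli in macrophages, was the single H3K27 demethylase (ENSG00000132510; chr17:7743222-7758114, plus strand, 24 exons). It was at 8.58 (N-scr), 14.1 (H-scr), 25.4 (N-si) and 32.0 FPKM (H-si). Both TET1-si libraries lay above both scrambled ones. TET1-si cells were 2.96-fold higher under normoxia (log2 1.55, interval 1.47 to 1.66) and 2.27-fold higher under hypoxia (log2 1.17, interval 1.11 to 1.25). Hypoxia went with smaller differences, 1.65-fold with the scrambled control and 1.26-fold with TET1-si.

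JMJD6 (ENSG00000070495; chr17:74708919-74722866, minus strand, 6 exons) hydroxylates lysines of splicing factors and was also described as a histone arginine demethylase. It was at 31.9 (N-scr), 30.6 (H-scr), 29.4 (N-si) and 26.8 FPKM (H-si). Its hypoxia change was -0.06 with the scrambled control (interval -0.19 to 0.06) and -0.13 with TET1-si (interval -0.27 to -0.00097). With TPM these turned to 0.06 and 0.0018. JMJD6 was the third most abundant member in N-scr and the eighth in H-si.

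**Figure D2:**
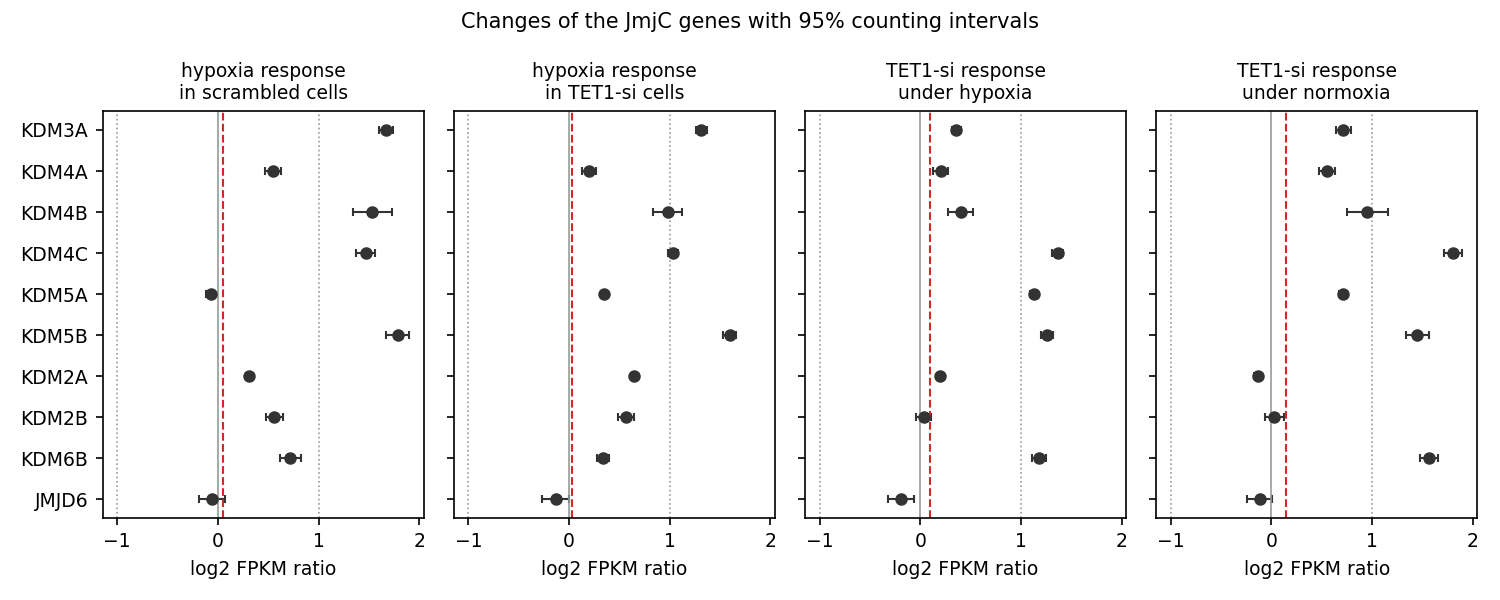
Log2 ratio of the FPKM of each JmjC gene in the 4 comparisons, with no pseudocount, 95% counting intervals as bars, a dashed red line at the median of all genes and dotted lines at a 2-fold change. KDM5B and KDM4C lay past 1, a 2-fold change, in all 4 comparisons, and JMJD6 lay between -0.19 and -0.06.

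Counted over all 10 genes, hypoxia in scrambled cells went with a higher level of 8, each with a counting interval above 0, where 52.9% of all genes were higher. KDM5A had an interval below 0, and that of JMJD6 included 0. Intervals were computed for the members alone, so the count of intervals has no share over all genes beside it. At a 1.5-fold threshold 5 members were higher, where 23.2% of all genes were, and none was lower, where 13.7% were. In TET1-si cells 9 members were higher under hypoxia, where 51.5% of all genes were. JMJD6 and KDM5A changed sides under TPM, as given with their values. The 3 past 2-fold compare with 12.5% of all genes that were higher and 8.66% that were lower, and 5 past 1.5-fold compare with 23.7% higher and 19.0% lower, no member being lower at either threshold. KDM3A, KDM4C and KDM5B were at least 2-fold higher under hypoxia in both arms, as were 6.73% of all genes, while 2.34% of all genes and no member were at least 2-fold lower in both.

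Under normoxia the TET1-si library was at least 2-fold higher at KDM4C, KDM5B and KDM6B, where 12.1% of all genes were, and lower at none, where 5.56% were. The members had a median TET1-si difference of 0.71, against 0.15 over all genes. With 1.5-fold as the threshold 6 members were higher against 24.7% of all genes, and none was lower against 12.0%. Under hypoxia the TET1-si library was at least 2-fold higher at KDM4C, KDM5A, KDM5B and KDM6B, beside 12.0% of all genes, and lower at none, beside 8.35%. The median of the 10 was then 0.38 against 0.10. The same 4 members were the ones past 1.5-fold, beside 24.3% of all genes higher and 16.8% lower. KDM4C, KDM5B and KDM6B were past 2-fold in both oxygen states, as were 6.51% of all genes, and no member but 3.06% of all genes were lower in both. The hypoxia and knockdown comparisons share libraries (H-scr, for example, enters the hypoxia response of scrambled cells and the TET1-si response under hypoxia), so a member that is high in one is not an independent case in the other. Scaling moved the median of all genes by more than 0.1, to 0.16 with TPM and -0.06 with median-of-ratios in the hypoxia response of scrambled cells. Relative to the median of all genes the members as deposited lay 0.59 higher there, a value that a library scaling leaves the same but for the pseudocount.

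The signed hypoxia change was lower in TET1-si than in scrambled cells for 7 of the 10, and for 55.4% of all genes. Where a gene falls under hypoxia, a lower change is a larger fall, as in the values of JMJD6 (-0.06 in scrambled and -0.13 in TET1-si cells). All 8 hypoxia control genes had a lower change in TET1-si cells, which for them is a smaller rise, with a median difference of -0.82. The counting interval of the difference lay below 0 for 6 of the 7 members, KDM3A, KDM4A, KDM4B, KDM4C, KDM5B and KDM6B. The largest such difference was -0.53 for KDM4B (interval -0.79 to -0.31). KDM2A and KDM5A went the other way, by 0.33 (interval 0.29 to 0.38) and 0.42 (interval 0.36 to 0.47). KDM2B and JMJD6 had intervals that included 0. At these read counts the intervals were narrow, 0.05 to 0.24 on either side. They were computed for the members alone, so no share over all genes stands beside these interval counts. No member differed by 2-fold or more between the arms. Among all genes, 4.87% had a higher and 7.86% a lower signed change in TET1-si cells by that much. The members had a median difference of -0.26, against -0.06 over all genes. Without replicates the difference of 2 responses has no error term other than counting.

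**Figure D3:**
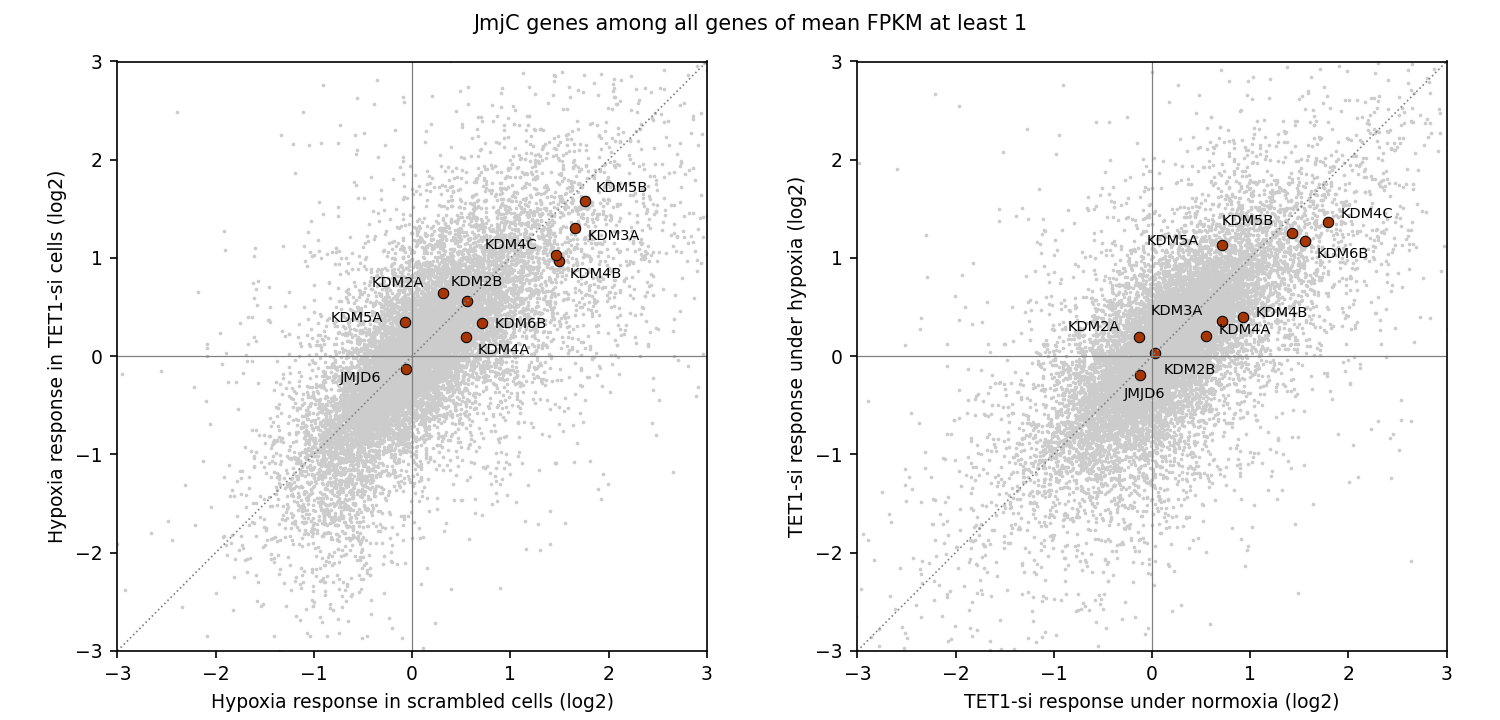
Left, hypoxia response in TET1-si against scrambled cells; right, TET1-si response under hypoxia against normoxia, all on the log2(FPKM + 0.1) scale, with the 10 JmjC genes in red over the 15057 genes tested in grey and axes cut at 3 on either side of 0, which leaves 517 genes out on the left and 586 on the right. KDM3A, KDM4B, KDM4C and KDM5B stood at the right of the left panel, and KDM4C, KDM5B and KDM6B at the right of the right panel.

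N-scr was the lowest and H-si the highest of the 4 libraries for 7 members, KDM2B, KDM3A, KDM4A, KDM4B, KDM4C, KDM5B and KDM6B, beside 24.7% of all genes. KDM2B met this by TET1-si differences whose intervals included 0, and dropped out with median-of-ratios and upper-quartile scaling, which left 6. TPM added KDM5A, for 8. The share of 24.7% holds for the values as deposited, and the share of all genes under these scalings is not given here. The 10 genes summed to 230.8 (N-scr), 355.0 (H-scr), 325.8 (N-si) and 525.8 FPKM (H-si). From N-scr to H-si the sum was thus 2.28-fold higher. The share of KDM2A in that sum was 34.4% in N-scr and 21.4% in H-si, while the share of KDM4C was 5.92% and 18.5%. KDM4C accordingly ranked seventh in N-scr and second in H-si, where KDM2A exceeded it 1.16-fold. Several neighbours in the order lay close together: KDM5A was 1.04-fold above JMJD6 in N-scr, KDM4A was 1.00-fold the level of JMJD6 in N-si, and KDM6B was 1.00-fold that of KDM5B in H-si. The study selected genes by 3 inequalities on FPKM, namely a hypoxic scrambled level over 2 times that of H-si and over that of N-scr, with N-si no higher than N-scr. No member met them, beside 3.84% of all genes.

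KDM3A was the gene chosen to look for like patterns, since it is the member best known from hypoxia. Over the 4 libraries, with each gene centred on its mean, the 5 closest of 9464 protein-coding genes with a mean of at least 5 FPKM were CTSS, TCF7L1, HSF4, TRIM22 and IFI27L2. CTSS, a lysosomal cysteine protease, was nearest at a distance of 0.138 on the log2 scale, with 12.8 (N-scr), 39.8 (H-scr), 18.7 (N-si) and 52.2 FPKM (H-si). HSF4, a heat shock transcription factor, was at 22.8, 78.7, 37.9 and 107.4 FPKM, a level close to that of KDM3A in each library. Of the other members KDM4B ranked 23rd at a distance of 0.30 and KDM5B 501st at 0.83. JMJD6 was the least like KDM3A, at rank 4808.

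The remaining JmjC genes, 19 with those on Y left out, gave 18 with a mean of at least 1 FPKM. Their median hypoxia change was 0.29 with the scrambled control and 0.26 with TET1-si, between that of the 10 members and that of all genes. The members and this list were chosen with earlier results of these data known. The part of that choice in the gap between the 2 lists was not tested. In scrambled cells 1 of them was higher under hypoxia by 2-fold or more and 1 was lower by as much. With TET1-si, 1 was at least 2-fold higher under normoxia and 2 under hypoxia, beside 12.1% and 12.0% of all genes. None was lower by as much under normoxia and 1 was under hypoxia, beside 5.56% and 8.35%. Their median TET1-si differences were 0.21 and 0.13, against 0.15 and 0.10 over all genes. H-si was the highest library for several of them too. KDM7A, an H3K9 and H3K27 demethylase, was at 0.816 (N-scr), 2.86 (H-scr), 0.678 (N-si) and 0.777 FPKM (H-si), so H-scr alone stood out. JMJD7, a lysyl hydroxylase, was at 14.3, 6.38, 7.58 and 6.78 FPKM, with N-scr alone high, and its value is uncertain because a readthrough transcript with PLA2G4B shares its exons. RIOX1, a ribosomal oxygenase, was at 6.54, 9.25, 20.5 and 7.33 FPKM and was the 1 gene of this list at least 2-fold lower under hypoxia in TET1-si cells.

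The methyltransferases that place these marks, 20 genes with the PRC2 subunits, had median hypoxia changes of -0.04 in scrambled and -0.11 in TET1-si cells. None of the 20 was at least 2-fold higher under hypoxia in scrambled or TET1-si cells, where 12.9% and 12.5% of all genes were. In TET1-si cells 4 were at least 2-fold lower, where 8.66% of all genes were. NSD2, which dimethylates H3K36, was at 77.6 (N-scr), 47.2 (H-scr), 85.0 (N-si) and 35.1 FPKM (H-si). SUV39H1 and SUV39H2 trimethylate H3K9 in heterochromatin, and SUV39H1 was at 12.7, 9.97, 17.1 and 5.69 FPKM while SUV39H2 was at 16.5, 9.82, 15.5 and 6.71. EZH2, the catalytic subunit of PRC2, was at 32.6, 27.7, 31.5 and 13.5 FPKM. H-si was the lowest library for each of these 4 genes, which were named because they were low in that comparison. For several of the other methyltransferases H-si was the highest library, so the 4 do not stand for the 20. Of the 10 demethylases H-si was the highest library for 9, all but JMJD6, beside 35.8% of all genes. It was so for 8, without KDM2B, with median-of-ratios or upper-quartile scaling, for which the share of all genes is not given here. The flavin-dependent demethylases need oxygen but not iron or 2-oxoglutarate. Of these KDM1A was at 46.1, 37.3, 37.1 and 37.3 FPKM, and KDM1B was at 5.32, 5.30, 6.50 and 6.85. Neither differed by 1.5-fold between any 2 libraries.

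**Figure D4:**
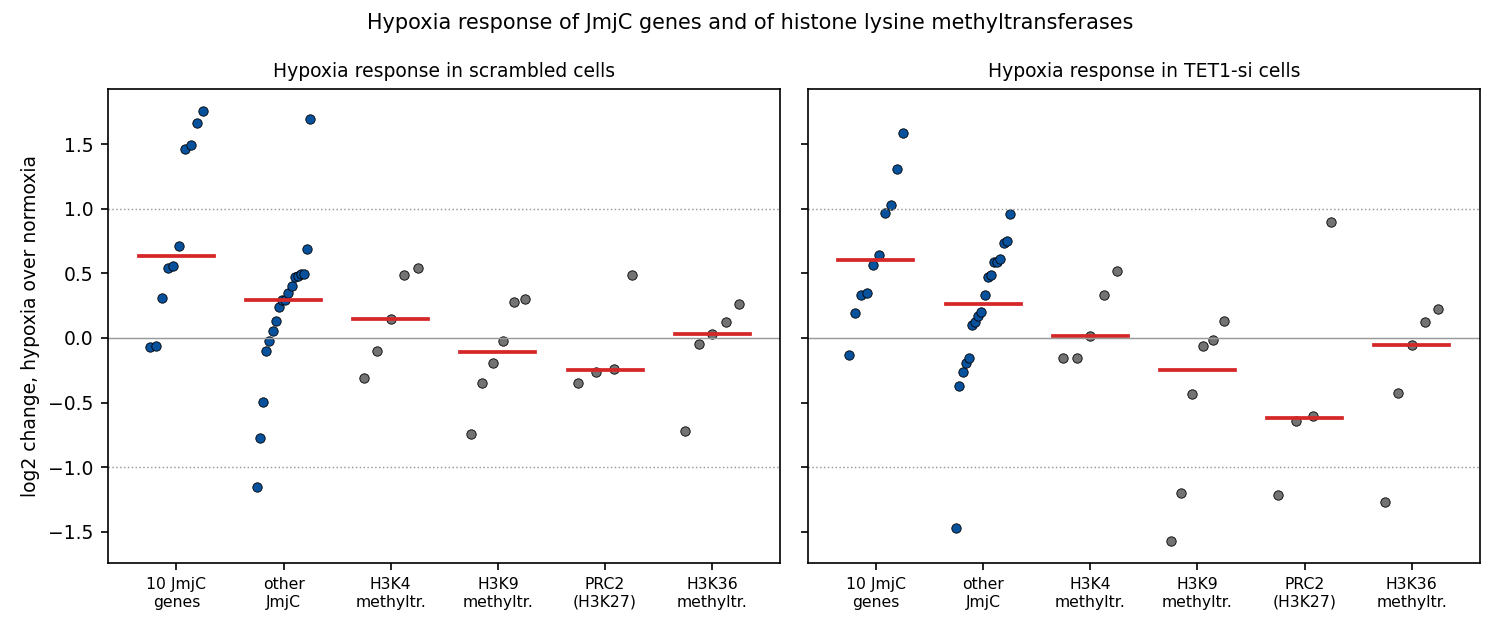
Hypoxia responses on the log2 scale in scrambled cells (left) and TET1-si cells (right), 1 point per gene, for the 10 JmjC genes, the other JmjC genes and the methyltransferases by residue, with red lines at the medians and dotted lines at a 2-fold change. Left, the medians were 0.64 for the 10 JmjC genes, 0.29 for the other JmjC genes, and 0.15, -0.11, -0.25 and 0.03 for the H3K4, H3K9, H3K27 and H3K36 methyltransferases.

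To see whether a member moved with its surroundings on the chromosome, each member was set beside up to 25 tested protein-coding genes on each side. The genes around KDM4C had a median TET1-si difference of 0.59 under normoxia and 0.44 under hypoxia, and KDM4C exceeded them by 1.20 and 0.92. Its nearest 4 tested genes, 2 on each side, had medians of 0.91 and 1.41, and the second was above the 1.36 of KDM4C itself. Under hypoxia KDM4C thus did not stand above the median of its nearest 4, while 4 of all its flanking genes were at or above it. Around KDM6B the medians were 0.70 and 0.58, so KDM6B, at 1.55 and 1.17, exceeded its surroundings by 0.85 and 0.59, with medians of 0.90 and 0.73 over its nearest 4. Both surroundings lay above the medians over all genes, 0.15 and 0.10. KDM5B exceeded its flanking genes by 0.97 and 0.96, and its nearest 4 had medians of 0.28 and -0.26. KDM4B exceeded its flanking medians, 0.13 under normoxia and 0.06 under hypoxia, by 0.80 and 0.34. Its nearest 4 had a median of 0.79 under normoxia and 0.52 under hypoxia, the second again above the value of the gene itself, 0.40. KDM5A had 2 tested genes before it, near the end of its chromosome arm, and exceeded the flanking median by 0.26 under normoxia and 0.82 under hypoxia. Its nearest 4 had medians of -0.29 and -0.54. Under hypoxia the TET1-si difference of KDM3A, 0.36, was close to its flanking median, 0.34, while its nearest 4 had a median of -0.08. Under normoxia KDM3A exceeded its flanking median by 0.33, and its nearest 4 had a median of 0.10. JMJD6 lay 0.58 and 0.51 below its flanking genes, whose medians were 0.46 and 0.32. The part of chromosome position in these differences was not tested. In the hypoxia response of scrambled cells the flanking medians ranged from -0.07 around KDM2B to 0.26 around KDM5B, and KDM3A, KDM4B, KDM4C and KDM5B exceeded theirs by 1.26 to 1.66.

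**Figure D5:**
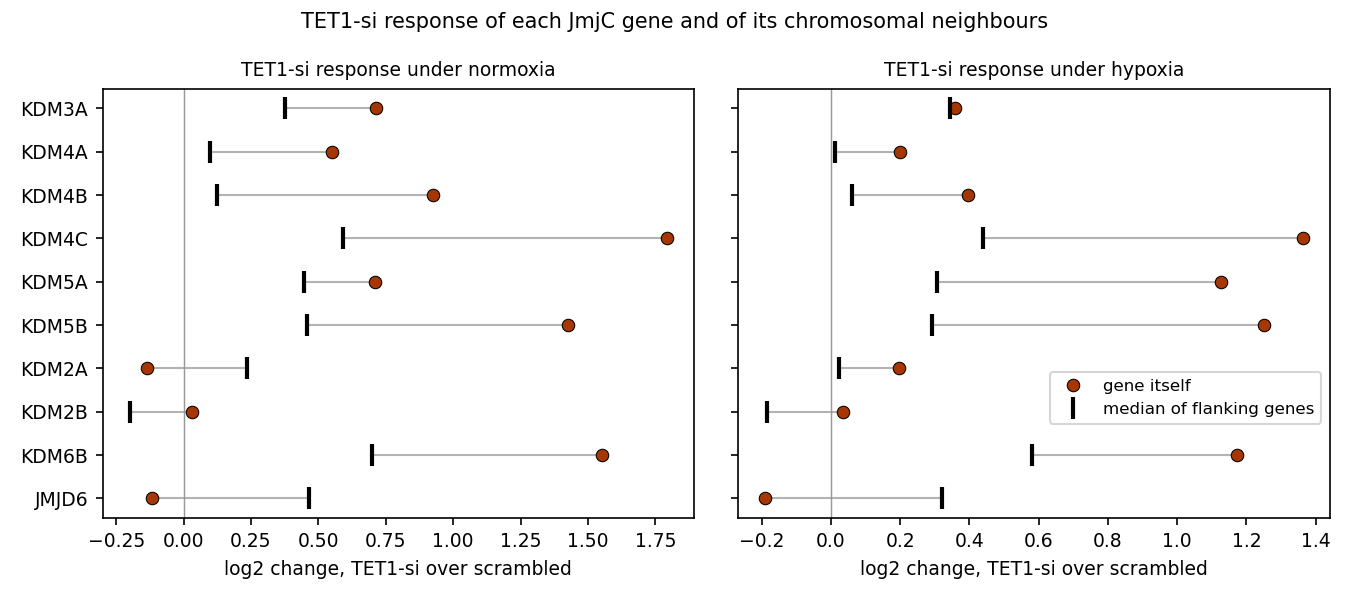
TET1-si response of each JmjC gene and the median of its flanking genes, up to 25 on each side, on the log2(FPKM + 0.1) scale, under normoxia and under hypoxia. KDM4C, KDM5B and KDM6B lay above these medians by 0.59 to 1.20 and JMJD6 below its own, while the nearest 4 genes of KDM4C, not drawn, had a median of 1.41 under hypoxia, above KDM4C.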

How the data were processed

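RNA-Seq was done by the study on 4 libraries of FaDu cells, grouped by their titles, with 1 library per group. The submitters' processing notes name TopHat, Cufflinks and hg19, without versions. The deposited values are FPKM per Ensembl gene, computed by the authors. Because FPKM depends on the total of each library, a few abundant genes can shift all others, so median-of-ratios, upper-quartile and TPM scalings were tried. Rows of gene identifiers on more than 1 row (232) were left out. Changes were taken on log2(FPKM + 0.1) over the 15057 genes of mean FPKM at least 1, with 2-fold as the threshold and 1.5-fold as an alternative. Pseudocounts of 1 and none, and a filter at 5 FPKM and none, were also tried, with the longest transcript in place of the canonical one for the intervals.

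Depth was recovered from 889 to 1031 low FPKM values per library among 18321 single-exon genes, and 97.1% to 97.6% of those low values came out within 0.05 of whole reads. Approximate reads (FPKM × depth × canonical length less 214 bp) gave Clopper-Pearson 95% intervals, and differences of responses approximate ones. PCR copies are not independent molecules, so intervals cover counting error only. Annotation was GENCODE v44lift37, which held 86.3% of the identifiers. The calculation was tested on simulated data. Python 3.11.15, numpy 2.4.6, pandas 2.3.3, scipy 1.17.1 and matplotlib 3.10.9 were used.

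The 10 members and all gene lists were chosen with earlier results of these data known. Named genes were the members, TET1, both flavin-dependent demethylases, the 5 genes most like KDM3A, and from each other list at most 4 genes at least 2-fold different in either hypoxia response. The overlapping genes and marker genes with values of note were named after their values were seen. The hMeDIP-Seq data of the study were not used here.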

Additional observations from a re-analysis of the deposited data

Results flagged for a closer look

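Of the members, 2 had responses of opposite sign in the paired arms of the design, and in neither case was the difference tested, since each arm is a single pair of libraries. The TET1-si difference of KDM2A was -0.13 under normoxia and 0.20 under hypoxia on the log2(FPKM + 0.1) scale, 0.33 apart. The hypoxia response of KDM5A was -0.07 in scrambled and 0.35 in TET1-si cells, 0.42 apart, and the first of these turned to 0.05 with TPM scaling.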

How the results depend on the processing

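No paired analysis was possible because each group is 1 library, and for the same reason no library could be left out. The median change of the 10 genes in the hypoxia response of scrambled cells was 0.52 with median-of-ratios scaling and 0.75 with TPM. In TET1-si cells it was 0.51 and 0.74. The median TET1-si difference under hypoxia was 0.23 with median-of-ratios and 0.27 with upper-quartile scaling, and under normoxia 0.54 with either. Relative to the median of all genes the members then lay 0.26 and 0.27 higher under hypoxia, against 0.28 as deposited. Under normoxia they lay 0.55 higher with either, against 0.56 as deposited. At a 1.5-fold threshold the members counted as higher were 5 for hypoxia in TET1-si cells and 6 for TET1-si under normoxia. Under TPM the hypoxia change turned to 0.048 for KDM5A and 0.057 for JMJD6 in scrambled cells, and to 0.0018 for JMJD6 in TET1-si cells. Median-of-ratios scaling left 2 members past 2-fold for hypoxia in TET1-si cells and 3 for TET1-si under hypoxia, and TPM gave 4 in the former. The counts over all 15057 genes moved as well. For hypoxia in TET1-si cells 1883 genes were higher as deposited, 1622 with median-of-ratios scaling and 2349 with TPM. For TET1-si under hypoxia 1807 were higher as deposited and 1418 with median-of-ratios scaling. The share of higher among all genes past 2-fold went from 59.0% to 47.0% for TET1-si under hypoxia and from 68.6% to 56.0% under normoxia with median-of-ratios scaling, and to 55.6% there with upper-quartile scaling. Of the counts, medians and criteria under alternatives, 100 values moved by at most 1.5 times (counts) or by less than a counting interval (medians). The 3 member counts given for median-of-ratios scaling and TPM were among them. Another 10, given above, moved by more. Of the values of single genes under alternatives, 266 stayed the same in this sense and 82 moved by more. A further 2 changed sign from an interval that left out 0, KDM5A in scrambled and JMJD6 in TET1-si cells under TPM. With 1 library per group, the spread between cultures is unknown for every value.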
